A study of Mus musculus with 2 samples.

Results

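The Meg3 and Rian microRNA genes are 9 of the 2202 microRNA genes counted in the left cerebral cortex of mouse pups. They were taken by name and position, with earlier results of these data known. Mir770, Mir673, Mir493, Mir337, Mir540 and Mir665 form the Meg3 side, and Mir341, Mir1188 and Mir370 the Rian side, of the imprinted Dlk1-Dio3 region on chromosome 12. MicroRNA libraries were made from total RNA of 2 female B6CASTF1/J mice aged 10 days, first-generation hybrids of C57BL/6J and CAST/EiJ, with no treatment, mutation or control group in the labels. The females are numbered separately and are called animal 1 and animal 2, after their biological replicate numbers, although both carry the same donor entry. Animal 1 gave 3806078 reads on the own strand of microRNA genes and animal 2 gave 2602935.

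MicroRNAs are short RNAs cut from hairpins by the nucleases Drosha and Dicer, and bases 2 to 8 of the mature arm, the seed, pair with target messenger RNAs. The Dlk1-Dio3 region carries protein-coding genes read from the paternal chromosome, and long noncoding RNAs, small nucleolar RNAs and microRNAs read from the maternal one. Meg3 is a maternally expressed long noncoding RNA, and Rian hosts small nucleolar RNAs as well as microRNAs. The region is needed for normal growth and is strongly expressed in brain. No allele was told apart in these counts, so the imprint itself was not measured. Whole cortex was used, so fewer cells of a type and less RNA per cell cannot be told apart.

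The mature arms are shown because the counts join both arms of each hairpin, and each arm carries its own seed. The sequences are those of RefSeq on GRCm38.p6, where all 9 genes matched by symbol and all 9 hairpins had the same coordinates as the annotation of the counts. They run 5′ to 3′ with the seed in capitals.
miR-770-5p: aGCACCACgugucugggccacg
miR-770-3p: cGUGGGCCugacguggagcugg
miR-673-5p: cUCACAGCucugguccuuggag
miR-673-3p: uCCGGGGCugaguucugugcacc
miR-493-5p: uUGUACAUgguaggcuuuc
miR-493-3p: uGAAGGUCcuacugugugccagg
miR-337-5p: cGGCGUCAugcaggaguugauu
miR-337-3p: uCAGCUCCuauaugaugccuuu
miR-540-5p: cAAGGGUCacccucugacucugu
miR-540-3p: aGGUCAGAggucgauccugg
miR-665-5p: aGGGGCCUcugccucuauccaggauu
miR-665-3p: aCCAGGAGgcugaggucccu
miR-341-5p: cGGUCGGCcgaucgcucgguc
miR-341-3p: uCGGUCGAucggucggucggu
miR-1188-5p: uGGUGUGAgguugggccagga
miR-1188-3p: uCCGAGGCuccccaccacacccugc
miR-370-5p: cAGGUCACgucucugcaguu
miR-370-3p: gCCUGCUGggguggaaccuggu

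The 18 arms carried 18 different seeds, so the 9 hairpins form no seed family among themselves. Of the 18 seeds, 3 were also found in a mature microRNA of another gene in the same table of 1738 mature sequences. No arm of the 9 hairpins occurred whole in any other of the 1005 hairpins listed. Arms were 19 to 26 bases long, and 7 of the 18 began with U.

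Hairpins are shown for the gene that dominates the group (Mir770), for the gene that differed most between the animals (Mir665) and for the one with the most copies of the letters GGUC (Mir341), with the mature arms in capitals.
Mir770, chr12:109563692-109563785, plus strand: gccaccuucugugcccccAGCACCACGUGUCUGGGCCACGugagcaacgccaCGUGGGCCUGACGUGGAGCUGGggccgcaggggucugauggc
Mir665, chr12:109586314-109586407, plus strand: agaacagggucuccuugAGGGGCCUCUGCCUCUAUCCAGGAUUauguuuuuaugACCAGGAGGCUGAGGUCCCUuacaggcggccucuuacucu
Mir341, chr12:109611500-109611595, plus strand: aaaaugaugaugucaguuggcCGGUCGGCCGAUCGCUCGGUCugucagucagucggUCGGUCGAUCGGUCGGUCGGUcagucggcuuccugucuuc

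The Mir770 hairpin was 70.2% G or C, and 2.41% of all listed hairpins had a higher content. The median was 59.4% over the 9 hairpins and 51.7% over all listed hairpins. Mir770 also had the lowest predicted folding energy of the 9, at -58.2 kcal/mol by RNAfold, while the other 8 lay between -49.4 and -40.9 kcal/mol. These energies are not divided by length, and the hairpins run from 67 to 120 bases. Per base, Mir770 (-0.619 kcal/mol) and Mir540 (-0.610), the shortest hairpin, were close. The others lay between -0.542 and -0.352 kcal/mol per base. In Mir341 GGUC occurred 7 times on the hairpin strand, and no listed hairpin held more. GGUC occurred in 25.0% of the hairpins.

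Only Mir770 lies inside annotated Meg3. It falls within an exon of 1 of the 4 Meg3 transcripts that span it, and within an intron of the others. Mir673 (109571990 to 109572080) starts 264 bases after the annotated end of Meg3, and Mir493 (109580233 to 109580315) starts 8507 bases after it. Mir337 (109585789 to 109585885), Mir540 (109586080 to 109586146) and Mir665 lie within 619 bases of each other, between Meg3 and Rtl1, a paternally expressed gene of the opposite strand. Mir341, Mir1188 (109611822 to 109611941) and Mir370 (109618258 to 109618336) lie in introns of Rian. All coordinates are on the plus strand of mm10, chromosome 12, and the 9 genes span 54645 bases.

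All 9 genes were present in both animals, and Mir770 held most of their reads. Levels are in CPM, the reads of a gene per 1000000 reads counted to microRNA genes, and detection here means at least 10 CPM in each library. All 9 were detected, while 13.9% of all 2202 microRNA genes were. All 9 also passed 100 CPM in both libraries, which 8.99% of all microRNA genes did. Together they took 5.08% of the counted reads of animal 1, with an exact Clopper-Pearson 95% interval of 5.06% to 5.11%. In animal 2 they took 5.57% (5.54% to 5.60%), which gives an average of 5.33% ± 0.345 (SD, n = 2). Intervals cover counting error only, and an SD over 2 animals rests on a single difference.

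Mir770 had 139879 reads in animal 1 and 109162 in animal 2. This came to 3.68% of the counted reads of animal 1 (3.66% to 3.69%, exact 95% interval) and 4.19% of those of animal 2 (4.17% to 4.22%). By counted reads the gene ranked 6th in both libraries. Reads with several map positions, 42.7% and 40.4% of all reads in animals 1 and 2, are listed apart. The rank may therefore not hold against microRNAs with several gene copies. Of the reads of the 9 genes, Mir770 took 72.3% in animal 1 and 75.3% in animal 2. Without it, the other 8 held 1.41% and 1.38% of counted reads in animals 1 and 2, so these 2 shares were close.

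On the Meg3 side, Mir337 and Mir540 followed Mir770. Mir337 had 10630 and 6707 reads in animals 1 and 2, or 2793 and 2577 CPM. Mir540 had 7134 and 4817 reads, or 1874 and 1851 CPM, the smallest spread of the 9 in CPM (a coefficient of variation, SD over mean, of 0.902%). After the TMM scaling used for the comparison of the animals, Mir341, Mir1188 and Mir337 lay closer than Mir540. Mir673 stood lower, with 4053 and 1847 reads, or 1065 and 709.6 CPM. Mir665 had 3554 and 930 reads, or 933.8 and 357.3 CPM, the widest spread of the 9 in CPM (63.1%). Over the 531 genes with at least 10 reads in total, the common coefficient of variation between the animals beyond counting noise was 38.4%, and Mir665 was the only one of the 9 above it. The measures are unlike: the 38.4% is after TMM, while the spreads of the 9 are in CPM and include counting noise. Mir493 was the lowest of all 9 in both animals, with 408 and 314 reads, or 107.2 and 120.6 CPM; in human colon cancer cells its product is known to repress the receptor gene IGF1R.

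On the Rian side, Mir370 and Mir341 stood well above Mir1188. Mir370, whose product is known in human liver cells to repress the fatty acid oxidation gene CPT1A, had 13804 and 12802 reads in animals 1 and 2. These were 3627 and 4918 CPM. Mir341 had 12937 and 7779 reads, or 3399 and 2989 CPM. Mir1188, 226 bases downstream of Mir341, had 1139 and 686 reads, or 299.3 and 263.5 CPM. The Rian side as a whole held 0.733% of counted reads in animal 1 and 0.817% in animal 2.

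**Figure D1:**
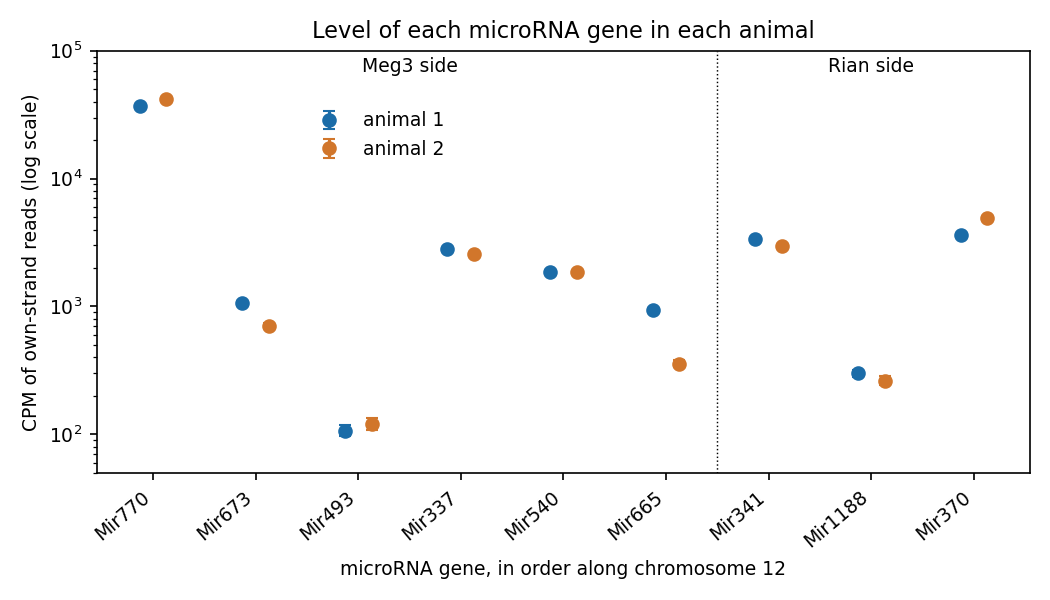
Level of each of the 9 genes in each animal, in CPM of own-strand reads on a log axis, in order along chromosome 12; bars are exact 95% counting intervals and are often smaller than the points. Mir770 stands about 10 times above the next gene in both animals (10.1 times Mir370 in animal 1 and 8.53 times in animal 2), and Mir665 shows the widest gap between the animals.

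Ordered by level, the genes ran Mir770, Mir370, Mir341, Mir337, Mir540, Mir673, Mir665, Mir1188 and Mir493, and this order was the same in animal 1 and in animal 2. Of the 8 neighbouring pairs in the order, 7 had ranges over the animals that did not overlap. The ranges of Mir673 and Mir665 did overlap, so these 2 genes are not separated by their spread over the animals. Within a library, Mir673 had 1.14 times the reads of Mir665 in animal 1 and 1.99 times in animal 2. Mir370 and Mir341 were close in animal 1 (a read ratio of 1.07) and further apart in animal 2 (1.65). These CPM values are not divided by length, since a microRNA read covers an arm and not the hairpin. Per base of hairpin, Mir540 (27.8 CPM per base) and Mir337 (27.7) exchange places and are no longer separated.

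The Meg3 side held 5.94 times as many reads as the Rian side in animal 1 and 5.82 times in animal 2, a mean of 5.88 ± 0.0860 (SD, n = 2). Without Mir770 the order of the sides turned. The 5 other Meg3-side genes then held 0.925 times the Rian-side reads in animal 1 and 0.687 times in animal 2. Mir770 made up 84.4% and 88.2% of Meg3-side reads in animals 1 and 2. Mir370 made up 49.5% and 60.2% of Rian-side reads.

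Set in the region from Dlk1 to Dio3, with 67 microRNA genes, the 9 genes held 23.0% of region reads in animal 1 (exact 95% interval 22.9% to 23.1%). In animal 2 they held 24.9% of them (24.8% to 25.1%). The 7 microRNA genes within Rtl1 held 31.2% and 29.8% of region reads in animals 1 and 2. All but Mir3071, which had no read, lie on the strand opposite Rtl1, and maternally expressed microRNAs of that strand are known to act against the paternal Rtl1 messenger. They were led by Mir127 (45244 and 43554 CPM), Mir433 (17106 and 17545), Mir431 (3669 and 3533) and Mir434 (2655 and 1772). The 46 genes between Mir370 and Dio3, called the Mirg side after the long noncoding RNA there, held 45.8% and 45.2%. Their leading genes were Mir487b (34100 and 41317 CPM), Mir382 (13903 and 17751), Mir541 (6866 and 6380) and Mir411 (6159 and 5990). Among the 9 genes the median of mean levels was 1862 CPM, against 2213 CPM over the 7 genes within Rtl1 and 289 CPM over the 46 genes. Over detected genes only, it was 1862 CPM for the 9, against 3601 CPM for those within Rtl1 and 654 CPM for the Mirg side, since 2 of the 7 and 8 of the 46 had no read in either library. All 9 were detected, as were 5 of the 7 and 35 of the 46. These differences between groups of genes were not tested.

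**Figure D2:**
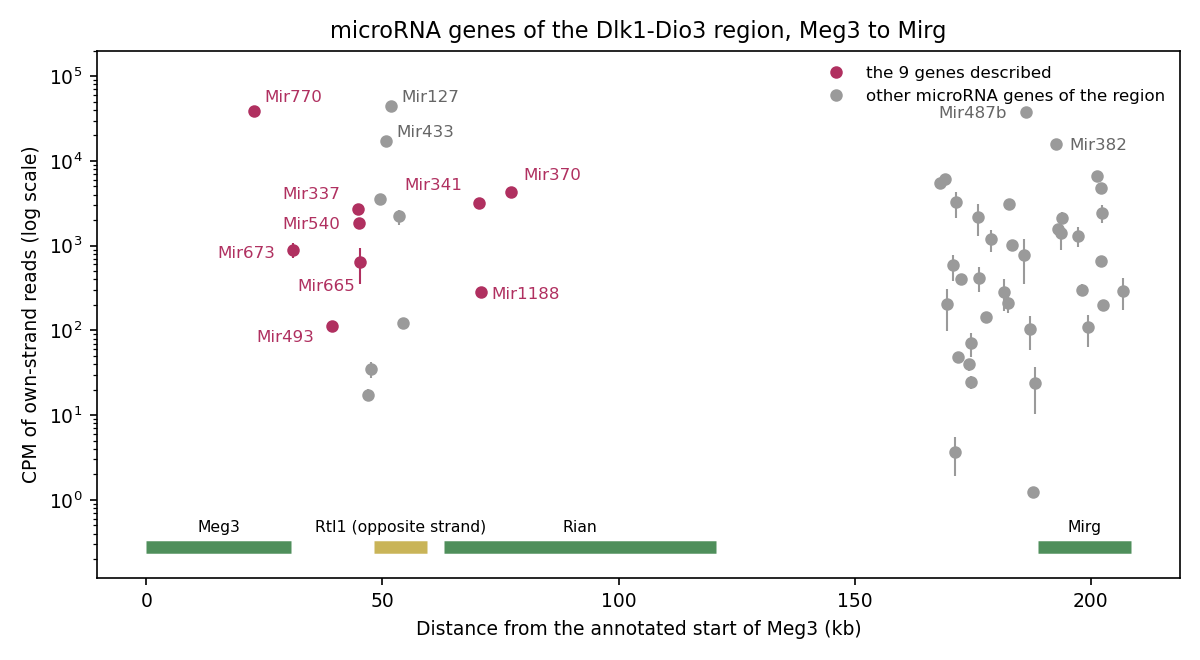
Mean CPM over the 2 animals, on a log axis, of each microRNA gene from Meg3 to Mirg with a mean of 1 CPM or more (53 genes), against distance from the annotated start of Meg3; vertical lines join the values of the animals and bars at the bottom are host or opposite genes. Mir770 lies near Mir127 and Mir487b (39345, 44399 and 37709 CPM), while the other 8 genes lie between 113.9 and 4273 CPM.

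Over the 2 libraries, the gene with levels most like those of Mir770 was Mir487b of the Mirg side, with a Euclidean distance of 0.110 on the scale of log2(CPM + 0.5). Mir744 of chromosome 11 (31341 and 36538 CPM in animals 1 and 2) and Mir127 followed, at 0.304 and 0.305. Likeness over 2 libraries is a description of these levels.

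The 9 genes did not move together between the animals. The animals were compared gene by gene with an exact conditional binomial test on counts scaled by TMM, a robust scaling factor per library, over the 531 genes with at least 10 reads in total. P-values were adjusted over all 531 genes by the Benjamini-Hochberg method. This test compares the reads of 2 libraries and no conditions, and its p-values measure counting noise only, so no difference has a replicate check. Of the 9 genes, 7 differed beyond counting noise, 2 higher in animal 1 and 5 higher in animal 2; with library totals in place of TMM, 5 were higher in animal 1 and 2 in animal 2. Over all genes tested, 51.6% differed, 26.9% higher in animal 1 and 24.7% higher in animal 2, so a difference of this kind is common. The 531 genes include ones with as few as 10 reads, where a given ratio passes less easily. All 9 exceeded 100 CPM, and the share that differed among genes of like depth was not computed. The median log2 ratio of animal 1 over animal 2 was -0.087 over the 9 genes and 0.045 over all 531. With library totals it was 0.12 over the 9 genes and 0.25 over all 531, and with DESeq2 size factors -0.14 over the 9 genes and -0.0061 over all 531.

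Mir665 was higher in animal 1 with a log2 ratio of 1.18 (exact 95% interval 1.08 to 1.29), or 2.27-fold. By the exact binomial test its adjusted p was 2.16e-125, and 83.2% of tested genes had a smaller ratio in either direction. Mir673 was also higher in animal 1, with a log2 ratio of 0.38 (0.30 to 0.46) and an adjusted p of 4.09e-21 by the exact test. These were the 2 genes of the 9 that were higher in animal 1 under all scalings tried.

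Mir370 was higher in animal 2, with a log2 ratio of -0.64 (exact 95% interval -0.68 to -0.61) and an adjusted p of 2.41e-283 by the exact test. Mir770 was higher in animal 2 as well, at -0.39 (-0.40 to -0.38), with a p-value too small to be represented. Mir493 had a log2 ratio of -0.37 (-0.59 to -0.16; adjusted p = 0.00155, exact test), and with library totals only it no longer passed (adjusted p = 0.190, exact test). Mir370 was 1.56-fold higher in animal 2, and 61.0% of tested genes had a smaller ratio in either direction. Mir770 was 1.31-fold higher in animal 2, and 41.6% of tested genes had a smaller ratio. The median absolute log2 ratio was 0.51 over all tested genes and 0.42 over the 209 with a mean of at least 100 CPM.

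Mir337 and Mir540 were slightly higher in animal 2 after TMM, at -0.087 (exact 95% interval -0.13 to -0.043) and -0.18 (-0.24 to -0.13). With library totals only, both ratios turned, to 0.12 for Mir337 and 0.018 for Mir540. Mir341 (-0.017, -0.058 to 0.023) and Mir1188 (-0.020, -0.16 to 0.12) did not pass after TMM, with adjusted p of 0.523 and 0.887 by the exact test. With library totals only they passed as higher in animal 1, at 0.19 and 0.18, and with DESeq2 size factors Mir341 passed as higher in animal 2 (-0.068). A change of scaling moves all log2 ratios together. The direction of these 4 genes therefore depends on the scaling, while that of Mir665, Mir673, Mir770 and Mir370 does not.

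**Figure D3:**
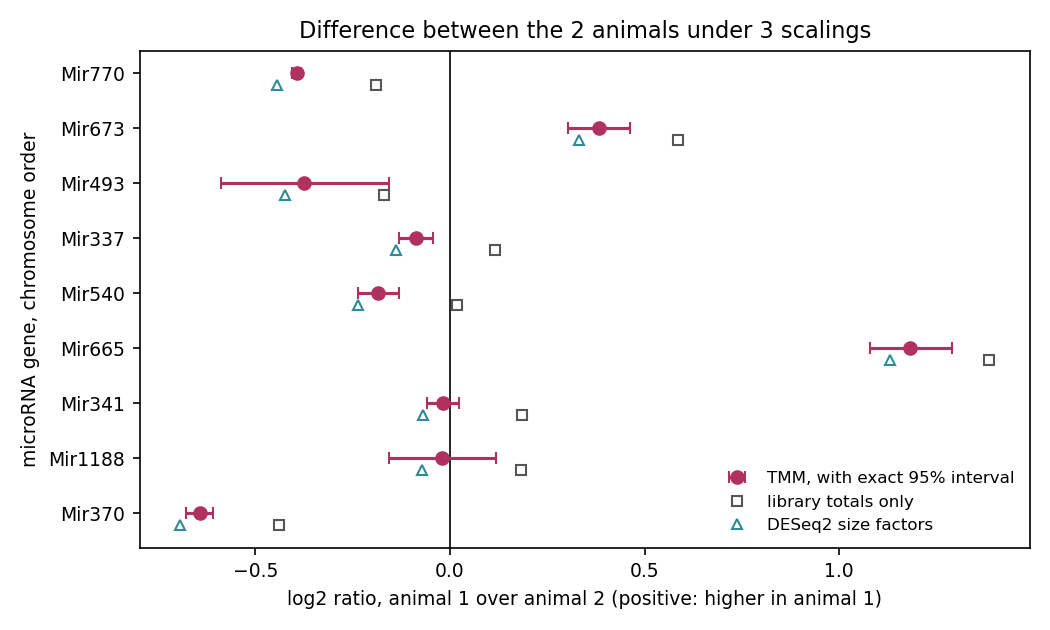
Log2 ratio of animal 1 over animal 2 for each of the 9 genes under 3 scalings, with exact 95% intervals for TMM. Mir665 and Mir673 lie right of 0 and Mir770 and Mir370 left of it under all 3, while Mir337, Mir540, Mir341 and Mir1188 cross 0 with library totals only.

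Ratios between genes of the same library are free of the scaling. Mir341 and Mir1188 kept their ratio, at 11.4 reads to 1 in animal 1 (exact 95% interval 10.7 to 12.1) and 11.3 to 1 in animal 2 (10.5 to 12.3). Mir337 and Mir540, 194 bases apart, had a ratio of 1.49 (1.45 to 1.54) in animal 1 and 1.39 (1.34 to 1.45) in animal 2. Mir540 and Mir665 are 167 bases apart, yet their ratio was 2.01 (1.93 to 2.09) in animal 1 and 5.18 (4.83 to 5.56) in animal 2. This pair lies closer together than Mir341 and Mir1188, yet its ratio differed more between the animals.

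Among the other neighbours, Mir770 had 34.5 times the reads of Mir673 in animal 1 and 59.1 times in animal 2. Mir673 had 9.93 times those of Mir493 in animal 1 and 5.88 times in animal 2. From a gene of the group to the next, the log2 ratio changed by a median of 0.69 over 8 pairs (range 0.0027 to 1.37). These pairs skip genes outside the group: Mir665 is paired with Mir341, 25092 bases on, across tested genes such as Mir127. Over 43 pairs of consecutive tested genes of the region outside the group the median was 0.74 (range 0.044 to 3.18). The 43 pairs skip the group, so Mir136 is paired with Mir379 across Mir341, Mir1188 and Mir370. Changes near 0.69 were thus common outside the group, but the 43 pairs include genes with few reads, where counting noise is larger. Neither set therefore holds only adjacent genes. The change of 3.18, from Mir3072 to Mir1247, rests on 15 reads of Mir1247 in animal 1 and 0 in animal 2. Mir1197 had 21 and 5 reads in animals 1 and 2, against 408 and 314 for Mir493. The part of counting noise in the median of 0.74 was not tested.

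**Figure D4:**
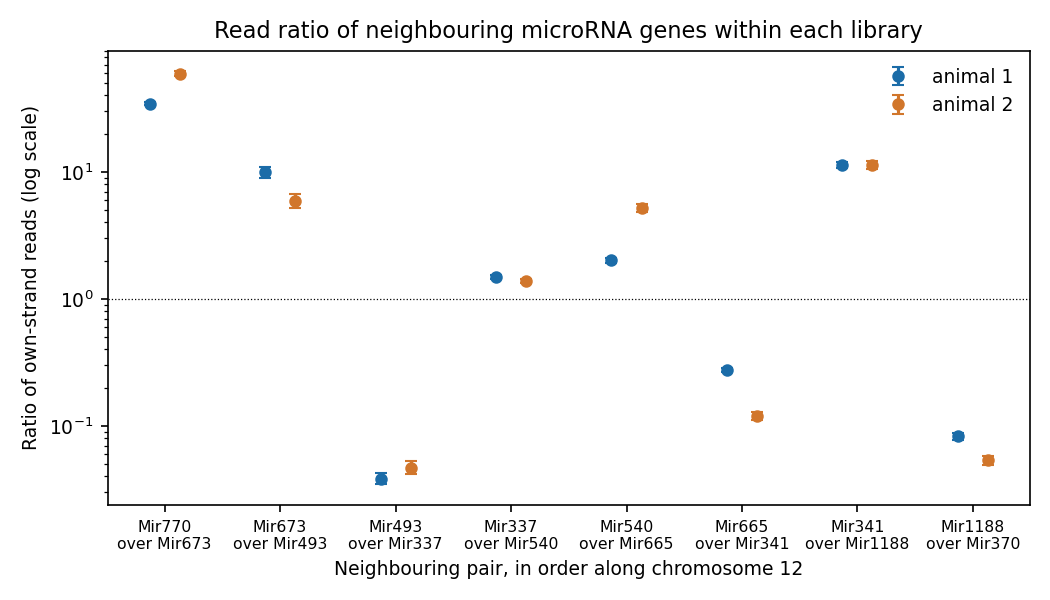
Ratio of own-strand reads of neighbouring genes within each library, on a log axis with exact 95% counting intervals, in order along chromosome 12. Neighbours are taken within the Meg3 and Rian group only, and other tested genes such as Mir127 lie between Mir665 and Mir341. The points of both animals coincide for Mir341 over Mir1188 and lie furthest apart for Mir540 over Mir665 (2.01 in animal 1 and 5.18 in animal 2).

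Reads on the opposite strand were nearly absent. For 8 of the 9 genes no such read was counted in either library, and Mir337 had 2 in animal 1 and 0 in animal 2. These 2 reads are the own-strand count of Mir3544, a gene annotated across Mir337 on the minus strand. In the column that ignores strand Mir337 had no count in either animal, while the other 8 had the same count as on their own strand. That column lists 2.72% and 1.86% of all reads in animals 1 and 2 as ambiguous, and the own-strand column 0%.

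Of the 3 seeds found in other microRNAs, 1 lies within the region: miR-370-5p shares its seed with miR-1193-3p, encoded on the Mirg side. The pair is printed to show that the likeness ends at the seed.
miR-370-5p: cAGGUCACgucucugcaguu
miR-1193-3p: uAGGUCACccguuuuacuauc
Mir1193 had 358 reads in animal 1 and 127 in animal 2, or 94.1 and 48.8 CPM, far below Mir370. The seed of miR-540-3p also occurs in miR-6915-5p (Mir6915, 32 and 13 reads in animals 1 and 2), and that of miR-673-5p in miR-6985-3p (Mir6985, 34 and 14 reads). The counts do not separate arms, so reads of these arms alone are not known.

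Markers of the tissue were measured beside these results. Of 12 listed neuronal genes 8 were detected, and the list held 4.09% and 4.18% of counted reads in animals 1 and 2, while the 3 Mir124a genes, which mark neurons, had 1 to 13 reads each. The 3 Mir9 genes of the list had 7 to 438 reads each. The endothelial gene Mir126a held 2.89% in animal 1 and 0.826% in animal 2, while the 2 smooth muscle and pericyte genes held 0.315% and 0.452%, 3 oligodendrocyte genes 0.119% and 0.164% and 4 blood genes 0.0809% and 0.109%. Members of these lists went different ways. Of the detected neuronal genes, Mir137 (9278 and 7888 CPM in animals 1 and 2), Mir138-1, Mir138-2 and Mir9-1 stood higher in animal 1. Mir128-1 (15292 and 17136 CPM), Mir128-2, Mir132 and Mir9-3 stood higher in animal 2. The red-cell genes Mir451a (27.9 CPM in animal 1 and 9.60 in animal 2) and Mir144 (21.3 and 8.07) stood higher in animal 1. The white-cell genes Mir150 (672.3 and 955.1) and Mir142 (87.5 and 116.4) stood higher in animal 2. Of the oligodendrocyte genes, Mir219a-1 (20.2 and 1.54 CPM) stood higher in animal 1, and Mir219a-2 (566.2 and 973.5) and Mir338 (600.9 and 665.4) in animal 2. Of 5 skeletal muscle genes 4 had no read, and the liver gene Mir122 stood at 42.6 and 41.9 CPM. The part of these differences in the ratios of Mir665, Mir673, Mir770 and Mir370 was not tested. Reads with several map positions, 42.7% and 40.4% of all reads in animals 1 and 2, are listed in a separate row. Whether any of them were also counted to a gene is not stated in the sources used here. All listed reads summed to 11350270 in animal 1 and 8551277 in animal 2 in each of the 3 strand columns. A single listing of each read would give such equal sums. The row of such reads bears on genes with several copies such as Mir124a.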

How the data were processed

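The authors deposited whole-number read counts, 1 table per library, with 3 columns: unstranded, own-strand and opposite-strand reads. Per the notes deposited beside the tables, the build is mm10 and the annotation GENCODE M21; the sources used here name neither the aligner nor the counter. Per the labels' protocols, libraries followed a multiplexed microRNA method. Counts are per hairpin gene and carry no molecular identifiers. Own-strand counts were used. The 4 top rows, which name no gene, were left out of library sizes; unmapped reads were 17.9% and 23.5% of all reads in animals 1 and 2, and reads outside listed genes 5.79% and 5.62%. All 2202 gene IDs were found in M21.

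Computed here were CPM, exact Clopper-Pearson intervals and the exact conditional binomial test (two-sided, Benjamini-Hochberg over 531 genes, threshold 0.05) with TMM factors of 1.07 and 0.932 for animals 1 and 2 from edgeR 4.0.16 in R 4.3.3. Log2 ratios add 0.5 to each count. The method was tested on simulated counts of 531 genes that held counting noise only. It called 54.0% of genes changed 1.5-fold, 74.0% at 2-fold, 82.0% at 3-fold, 90.0% at 5-fold and 1.51% of unchanged ones. Variation between animals was not simulated, so these shares do not give the rate of false calls between animals. Over the tested genes a chi-square of 198073 with 530 degrees of freedom separated the libraries, so they are not 1 library deposited again. Alternatives were DESeq2 1.42.0 size factors, library totals, other thresholds, no filter and the unstranded column. Folding energies came from RNAfold 2.7.2. Python 3.11.15 with scipy 1.17.1 was used. Named genes were the 9 genes, the 4 highest of each neighbouring list, genes lying between, the 3 nearest in level to Mir770 and those sharing a seed. The 9 genes and all lists were chosen with earlier results of these data known.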

Additional observations from a re-analysis of the deposited data

How the results depend on the processing

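The number of the 9 genes differing between the libraries, 7 after TMM, lay between 6 and 8 under the alternatives run, and 8 (unstranded column) or 9 were detected. The split by direction, 2 higher in animal 1 and 5 higher in animal 2, was 5 and 2 with library totals only and with region reads as library sizes, an alternative chosen after seeing the data. Log2 ratios of animal 1 over animal 2 turned with library totals only for Mir337 (0.12), Mir540 (0.018), Mir341 (0.19) and Mir1188 (0.18). They turned with region reads as library sizes for Mir337 (0.13), Mir540 (0.036), Mir341 (0.20) and Mir1188 (0.20). With TMM from all genes with a read, Mir341 (0.032) and Mir1188 (0.029) turned, and Mir337 no longer passed (-0.037, adjusted p = 0.219 by the exact test), which leaves 6 differing. The TMM factors were then 1.05 and 0.948 for animals 1 and 2, against 1.07 and 0.932, which moves all log2 ratios together. P-values were then adjusted over 770 genes. Adding 1 in place of 0.5 to each count changed only the log2 ratios. The exact test uses the counts without the addition, so no call of the 9 could change.

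The share of counted reads, 5.33%, was 1.70% with all listed reads as denominator and 1.39% without Mir770, by construction. With an animal left out, the share was that of the other animal, 5.08% or 5.57%, and the share of region reads 23.0% or 24.9%. The Meg3-side over Rian-side ratio of 5.88 was 5.53 in the unstranded column, where Mir337 has no count, and 0.806 without Mir770. With an animal left out, the ratio was that of the other animal, 5.94 or 5.82. All 9 genes stayed detected by construction, since detection required both libraries. Per base of hairpin, 2 neighbouring pairs in the order overlapped, against 1. The comparison of animals cannot be run with an animal left out. No paired analysis was possible because the labels give a single group. Depth limits Mir493 most, with 408 and 314 reads in animals 1 and 2.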

Other observations

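Besides the genes within Rtl1, a few other microRNA genes lie among the 9 and had few or no reads. Mir3070a, between Mir665 and Rtl1, had 77 and 38 reads in animals 1 and 2, and Mir3070b had 105 and 111, or 27.6 and 42.6 CPM. Mir3070b was higher in animal 2, with a log2 ratio of -0.83 (adjusted p = 8.39e-05, exact binomial test), and Mir3070a did not pass (adjusted p = 0.506, same exact test). Mir1906-1, which lies inside Meg3 upstream of Mir770, and Gm23912, just upstream of Mir370, had no read in either library. A count of 0 allows up to 3 reads, which is 0.788 CPM in animal 1 and 1.15 CPM in animal 2.

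With the reads of the region as library sizes, an alternative chosen after seeing the data, Mir770 had a log2 ratio of animal 1 over animal 2 of -0.17, against -0.39 after TMM. Mir665 had 1.40 on the region's reads, against 1.18 after TMM. Both kept their direction relative to the reads of the region as a whole.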
